A study of Mus musculus with 6 samples.

Results

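Cell cycle and proliferation genes were followed in heart RNA of mice with and without a conditional deletion of Ythdc1. The 40 genes were chosen by name and cover the cycle from the G1 cyclins to the machinery of cell separation. All 40 had a row in the deposited table of 54532 genes. By their textbook roles, 23 act in G1 and S phase and 17 from G2 to cytokinesis.

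A cell that divides passes from G1, where D-type cyclins with Cdk4 or Cdk6 phosphorylate the retinoblastoma protein and free the E2F factors, into S phase, where the licensed MCM helicase opens the DNA for copying. Cyclin A and cyclin B with Cdk1 then drive G2 and mitosis, and the mitotic kinases, the spindle checkpoint and the anaphase promoting complex order the separation of chromosomes and cells. Mouse heart muscle cells largely leave the cycle soon after birth, so dividing cells of the later heart are mostly other cell types.

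The control group was 3 hearts of Ythdc1flox/flox mice (flox controls 1 to 3) and the other group was 3 hearts of Ythdc1-CKO mice (CKO 1 to 3). The deletion is spelled HKO in the series design. YTHDC1 is the nuclear reader of the RNA modification m6A, and the series title asks about its place in cardiac development. All the mice had eaten normal chow for 15 days. The Cre driver, the cells it acts in, the deleted exons, the age and the sex are not given in the labels, and the replicates are described as independent biological ones.

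Ythdc1 itself was at 4.31, 3.64 and 4.10 FPKM (fragments per kilobase of gene, scaled per library) in flox controls 1, 2 and 3 and at 2.39, 2.57 and 2.34 FPKM in CKO 1, 2 and 3. The groups did not overlap, with a log2 fold change of -0.54 (SE 0.09, limma adjusted p = 0.015), while the exact 2-sided permutation p was 0.1, the smallest that 20 arrangements allow. The libraries held 17434296 to 19360428 reads in genes. Correlations of log2 values across genes were 0.978 to 0.984 among flox controls, 0.955 to 0.977 among CKO libraries and 0.940 to 0.953 between groups. CKO 3 stood apart in sex-linked RNA, with 4037 reads of Xist, the RNA of the inactive X chromosome, against 0 to 5 in the other libraries. The Y-linked gene Ddx3y was at 0.350 FPKM in CKO 3 and at 10.8 to 15.9 FPKM elsewhere. By these genes CKO 3 had the pattern of a female heart and the other libraries that of male hearts, though the labels give no sex. Heart muscle was the main source by markers: the 10 cardiomyocyte markers summed to 15939 to 24555 FPKM per library.

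Among the 40 genes 1, cyclin D2 (Ccnd2), was higher in CKO hearts, and none was called lower. Of the 40, 37 averaged 1 FPKM or more across all 6 libraries and entered the limma test over all 12144 genes at that level; Cdc6, Gins2 and Cenpe did not. The call of 1 in 37 compares with 11.2% of all tested genes called, 5.69% higher and 5.49% lower. At an unadjusted p under 0.05, 1 of the 37 passed and 0 of them were lower, against 3365 of the 12144 tested genes, of which 1670 were lower. Limma-voom on the recovered reads, which kept all 40, also called 1 higher and 0 lower, against 1541 called of 19498 genes. The groups did not overlap in 1 of the 37 genes, against 34.3% of all tested genes. The log2 fold change was negative in 30 of the 37, with a median of -0.19 against 0.01 over all tested genes. These signs rested on single libraries: without CKO 3, 12 of 37 were negative, and without flox control 2, 16 of 37.

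**Figure D1:**
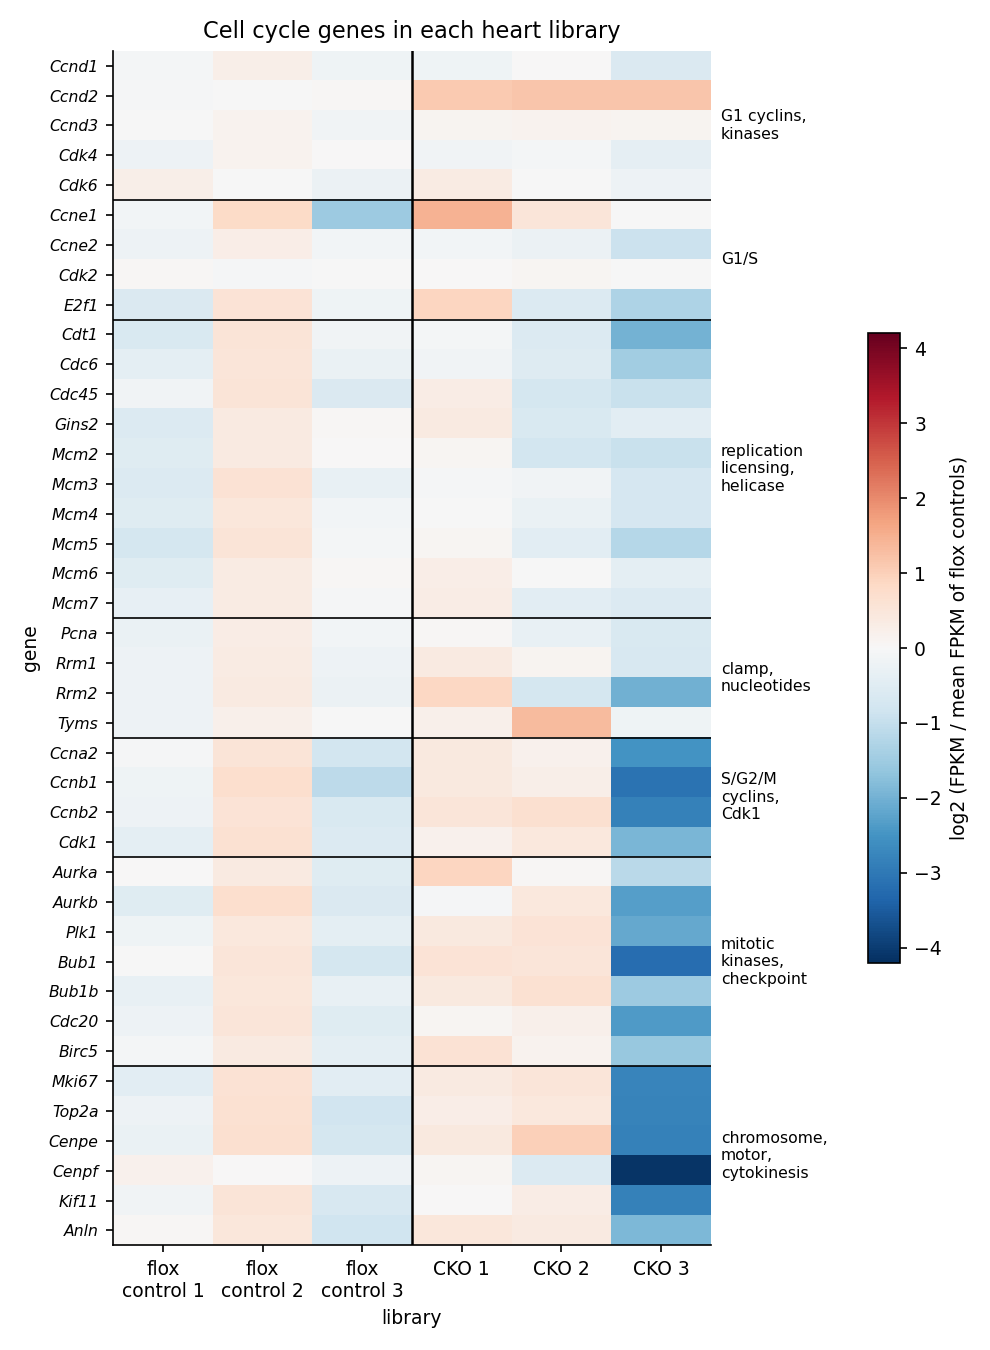
Level of each of the 40 genes (rows, in order of their role in the cycle) in each of the 6 libraries (columns), as log2 of the ratio to the mean of the 3 flox controls. Ccnd2 is higher in all 3 CKO libraries, and the 17 genes that act from G2 to cytokinesis are lowest in CKO 3.

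Ccnd2 encodes a D-type cyclin that activates Cdk4 and Cdk6 in G1. The gene (ENSMUSG00000000184) lies on the minus strand at chr6:127125162-127152193 of GRCm38.p6. It was at 11.8, 11.9 and 12.6 FPKM in flox controls 1, 2 and 3 and at 25.9, 27.2 and 27.0 FPKM in CKO 1, 2 and 3. Every CKO library was above every flox control, and the libraries of each group lay close together. The means were 12.1 ± 0.443 FPKM (SD, n = 3) and 26.7 ± 0.721 FPKM (SD, n = 3), a 2.21-fold ratio. The log2 fold change was 1.08 (SE 0.08, 95% interval 0.89 to 1.27, limma adjusted p = 0.00293). The values rested on 1872, 1964 and 2361 reads in the flox controls and 4371, 4987 and 4605 in the CKO libraries. By p, Ccnd2 stood at rank 15 of the 12144 tested genes and at rank 7 of the 691 called higher. It was called under all 17 alternatives run, with log2 fold changes of 1.07 to 1.15 and limma adjusted p of 0.00167 to 0.0233. An antisense gene, 9330179D12Rik, shares 3.91% of the exon bases of Ccnd2 and had a mean of 0.398 FPKM.

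The other D-type cyclins were not called. Cyclin D1 (Ccnd1) was at 14.2, 17.6 and 13.2 FPKM in the flox controls and at 13.2, 15.3 and 9.94 FPKM in CKO 1, 2 and 3. Its groups overlapped, with a log2 fold change of -0.22 (95% interval -0.64 to 0.19, limma adjusted p = 0.459). Cyclin D3 (Ccnd3) was at 9.15, 10.3 and 8.24 FPKM and at 9.98, 10.3 and 10.1 FPKM, with a log2 fold change of 0.13 (95% interval -0.10 to 0.36, limma adjusted p = 0.436). The interval of Ccnd2 lies above those of both. As a description of the same values, Ccnd2 made up 33.5%, 29.9% and 36.96% of the summed D-type cyclin FPKM in the flox controls and 52.7%, 51.6% and 57.4% in the CKO libraries. Ccnd1 was the most abundant D-type cyclin per length in each flox control and Ccnd2 in each CKO library. The summed D-type cyclin level was 36.3 ± 3.03 FPKM in flox controls and 49.7 ± 2.93 FPKM in CKO hearts (SD, n = 3 each).

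The kinases that D-type cyclins bind overlapped between the groups. Cdk4 was at 17.3, 22.1 and 20.1 FPKM in the flox controls and at 17.9, 18.6 and 15.3 FPKM in CKO 1, 2 and 3, with a log2 fold change of -0.19 (95% interval -0.48 to 0.11, limma adjusted p = 0.374). Cdk6 ranged over 3.15 to 4.45 FPKM in flox controls and 3.25 to 4.83 FPKM in CKO hearts. Part of the exon bases of Ccnd1 (23.4%) and Cdk4 (19.7%) overlap genes on the opposite strand, LTO1 and Tspan31, so their levels are uncertain to that extent.

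**Figure D2:**
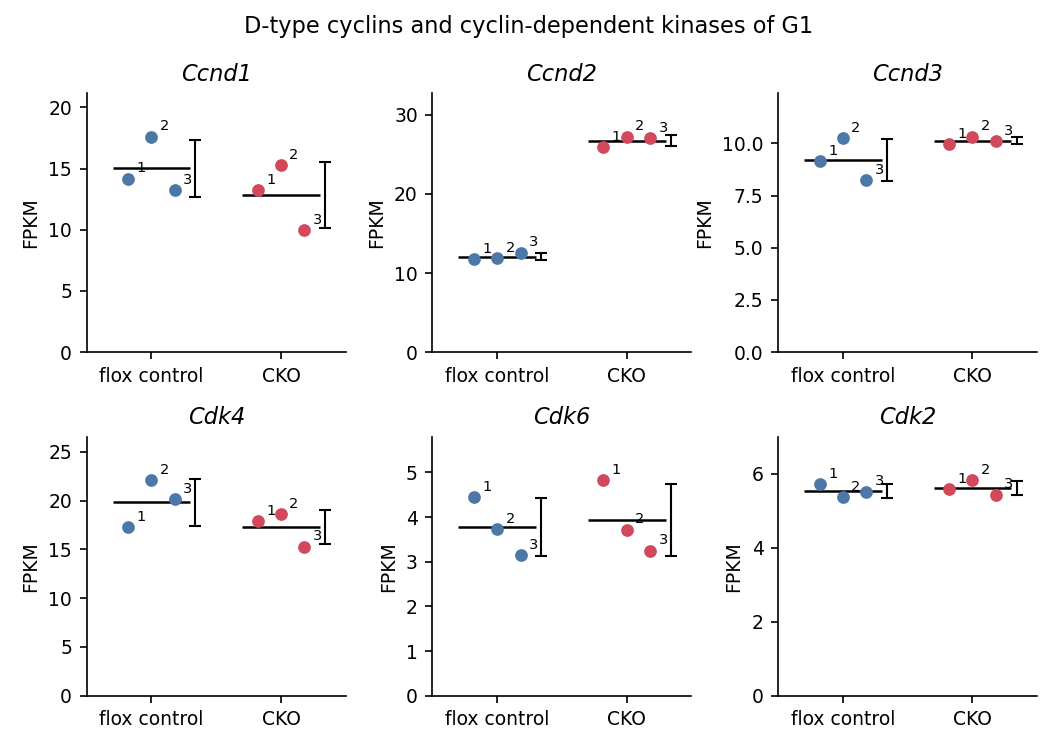
FPKM per library of the D-type cyclins Ccnd1, Ccnd2 and Ccnd3 and of Cdk4, Cdk6 and Cdk2, with each numbered point 1 library, the horizontal line the group mean and the bracket its SD (n = 3). The 3 CKO points of Ccnd2 lie at 25.9 to 27.2 FPKM, above all 3 flox control points; the other panels overlap.

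At the G1 to S transition, Cdk2, the partner kinase of cyclin E, had nearly the same level in all libraries. It was at 5.73, 5.37 and 5.53 FPKM in the flox controls and at 5.59, 5.83 and 5.44 FPKM in CKO 1, 2 and 3. The log2 fold change was 0.02 (95% interval -0.16 to 0.19, limma adjusted p = 0.909). E2f1, an activator of S phase genes, was at 1.67, 3.75 and 2.23 FPKM and at 4.75, 1.71 and 1.03 FPKM. CKO hearts thus held both the highest and the lowest library of E2f1, and the log2 fold change of -0.12 had a 95% interval of -1.08 to 0.84 (limma adjusted p = 0.881). The E cyclins were low: Ccne1 ranged over 0.264 to 2.09 FPKM on 14 to 100 reads, and Ccne2 over 0.853 to 1.92 FPKM on 54 to 118 reads. Neither was called. Ints8, on the opposite strand, overlaps 17.4% of the exon bases of Ccne2.

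The 10 licensing and helicase genes load and fire the replication origins, and none of the 8 tested was called. The helicase subunit Mcm6 was at 3.85, 6.97 and 5.70 FPKM in the flox controls and at 6.67, 5.39 and 4.10 FPKM in CKO 1, 2 and 3 (log2 fold change -0.02, 95% interval -0.54 to 0.51, limma adjusted p = 0.97). The subunit Mcm3 was at 3.94, 8.97 and 4.75 FPKM and at 5.75, 5.37 and 3.59 FPKM (log2 fold change -0.17, 95% interval -0.84 to 0.50, limma adjusted p = 0.74). Flox control 2 was the highest library for both genes, and the groups overlapped. The median ratio to the flox control mean over the 10 genes was 0.700, 1.40 and 0.930 in flox controls 1, 2 and 3. It was 1.06, 0.710 and 0.567 for the CKO libraries in order. The licensing factor Cdt1 was lowest in CKO 3, at 0.615 FPKM against 1.58 to 3.52 FPKM elsewhere. Cdc6 was at 0.211 to 0.828 FPKM in all libraries, and Gins2 at 0.539 to 1.09 FPKM with 67.3% of its exon bases shared with Gse1 on the opposite strand.

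The replication clamp Pcna and the enzymes of nucleotide supply were not called either. Pcna was at 17.6, 26.9 and 19.96 FPKM in the flox controls and at 22.1, 17.3 and 13.8 FPKM in CKO 1, 2 and 3 (log2 fold change -0.27, 95% interval -0.77 to 0.24, limma adjusted p = 0.466). Rrm2, the small subunit of ribonucleotide reductase, was at 6.98, 10.5 and 6.81 FPKM and at 14.7, 4.88 and 2.01 FPKM (log2 fold change -0.45, 95% interval -1.78 to 0.88, limma adjusted p = 0.652). The CKO libraries again spanned both extremes of Rrm2. The large subunit Rrm1 ranged over 1.86 to 3.88 FPKM, and thymidylate synthase Tyms over 0.699 to 2.06 FPKM with its highest value in CKO 2.

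The late genes differed most in a single library, CKO 3. The 17 genes from G2 to cytokinesis were lowest in CKO 3 without exception, whereas CKO 3 was the lowest library in 16.4% of all tested genes. In 16 of the 17, CKO 3 was at or below 0.5 times the next lowest library; Aurka, at 0.657 times, was the exception. Of all tested genes 173, or 1.42%, met that bound in CKO 3, among them 15 of the 16 tested late genes. The median ratio of the 17 genes to their flox control mean was 0.875, 1.45 and 0.664 in flox controls 1, 2 and 3. It was 1.32, 1.35 and 0.177 in CKO 1, 2 and 3. CKO 1 and CKO 2 therefore lay within the flox control range by this measure, and CKO 3 lay below it. The 23 genes of G1 and S phase had a median ratio of 0.643 in CKO 3 and met the bound of 0.5 times there in 2, Cdt1 and Rrm2. Summed over the 17 late genes, the level was 42.9, 71.3 and 32.4 FPKM in the flox controls and 62.0, 63.8 and 9.71 FPKM in the CKO libraries. In bulk RNA, fewer cells of a cycling type and less of these RNAs per cell cannot be told apart. CKO 3 was also the only library with the female pattern of sex-linked RNA, and the part of that difference in these low values was not tested.

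Promoter sequences of 5 of the named genes are shown because genes of the late phases and of S phase are known to differ in their promoter elements: a CHR (TTTGAA) with CCAAT boxes in the former and E2F sites in the latter. Each stretch is the 150 bases before the start given by RefSeq in its table for GRCm38.p6, 5′ to 3′ on the minus strand, where all 5 genes lie; capitals mark CHR, CCAAT and E2F letters on either strand. Positions are chr7:135716380-135716529 for Mki67, chr11:99024190-99024339 for Top2a, chr4:118437344-118437493 for Cdc20, chr9:70421555-70421704 for Ccnb2 and chr1:128359706-128359855 for Mcm6.
Mki67: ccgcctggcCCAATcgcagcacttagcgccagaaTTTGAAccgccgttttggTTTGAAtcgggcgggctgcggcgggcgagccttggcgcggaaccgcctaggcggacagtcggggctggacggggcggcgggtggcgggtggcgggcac
Top2a: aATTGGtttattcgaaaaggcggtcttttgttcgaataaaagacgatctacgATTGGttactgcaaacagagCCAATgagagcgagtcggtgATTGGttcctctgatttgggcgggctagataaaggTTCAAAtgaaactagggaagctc
Cdc20: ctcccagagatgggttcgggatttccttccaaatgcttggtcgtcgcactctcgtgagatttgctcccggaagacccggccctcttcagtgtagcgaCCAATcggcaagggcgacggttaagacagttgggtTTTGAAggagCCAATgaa
Ccnb2: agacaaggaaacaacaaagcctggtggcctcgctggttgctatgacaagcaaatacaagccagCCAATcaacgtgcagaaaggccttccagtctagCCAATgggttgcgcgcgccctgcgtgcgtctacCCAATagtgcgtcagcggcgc
Mcm6: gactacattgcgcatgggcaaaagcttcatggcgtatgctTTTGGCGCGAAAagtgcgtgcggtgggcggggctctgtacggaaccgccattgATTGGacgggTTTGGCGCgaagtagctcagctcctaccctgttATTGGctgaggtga

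In these stretches, Cdc20 has a CHR at position -18 and CCAAT letters at -53 and -8, counted from the start. Top2a has its CHR at -23, on the other strand, and Mki67 has a pair at -116 and -98. Ccnb2 shows CCAAT letters at -87, -54 and -21, and its CHR letters lie outside the printed stretch. Mcm6, the S phase example, has E2F letters at -110, -106 and -47, the first pair overlapping, and no CHR. It also has CCAAT letters at -57 and -14, on the other strand. Of the other named G1 and S phase genes with a RefSeq window, Cdk2 and Mcm3 have E2F letters. The windows of Ccnd3, Cdk4, E2f1, Pcna and Rrm2 have none. That of E2f1 lay inside the deposited gene, so the bases before its deposited start were not searched for E2F letters.

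RefSeq windows, from 250 bases before the start to 50 after it, matched 33 of the 40 genes, and Ccnd2 was not among them. In 25 of the 33, bases just after the start were found in an annotated transcript of the gene. The RefSeq start lay 2408, 539, 466 and 350 bases from the deposited gene start for Cdk6, Mcm7, E2f1 and Cdc6, which were kept. Their windows lay wholly inside the deposited gene, and the bases before its deposited start were not searched. They are counted below among the G1 and S phase promoters. The CHR letters, on either strand, were in 11 of 15 late promoters (73.3%), in 2 of 18 G1 and S phase promoters (11.1%) and in 11.2% of the 8823 windows of tested genes. CCAAT was in 86.7% of late promoters, 55.6% of G1 and S phase promoters and 38.6% of all. The E2F letters searched (TTTCCCGC, TTTCGCGC, TTTGCCGC and TTTGGCGC, on either strand) were in 6.67% of late promoters, 38.9% of G1 and S phase promoters and 4.06% of all. The level in CKO 3 relative to the flox control mean had a median of 0.224 over the 13 genes with CHR letters and 0.615 over the 20 without. The same split by CCAAT gave 0.261 over 23 genes with it and 0.587 over 10 without, and by the E2F letters 0.521 over 8 with them and 0.331 over 25 without. CCAAT thus divided the genes in the same direction as the CHR letters, and E2F in the opposite one. This is a description of 1 library, in which the late genes were low. Late genes are 11 of the 13 with CHR letters, 13 of the 23 with CCAAT and 1 of the 8 with E2F letters. The splits therefore cannot be told apart from the phase of the genes, and a match is not a bound site.

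Among the cyclins and Cdk1, which start mitosis, the same library stood out. Cyclin B2 (Ccnb2) was at 4.95, 8.55 and 3.64 FPKM in the flox controls and at 8.12, 9.20 and 0.793 FPKM in CKO 1, 2 and 3, the last on 22 reads. Its log2 fold change was -0.22 (95% interval -1.82 to 1.38, limma adjusted p = 0.871) with CKO 3 and 0.59 without it (limma adjusted p = 0.302). Cyclin A2 (Ccna2), which acts in S phase and G2, was at 4.0, 5.98 and 2.40 FPKM and at 5.54, 4.66 and 0.730 FPKM (log2 fold change -0.30, 95% interval -1.56 to 0.96, limma adjusted p = 0.763; 0.31 without CKO 3). For both genes CKO 1 and CKO 2 lay above 2 of the 3 flox controls or more, and CKO 3 below all of them. Cdk1 was at 0.783 FPKM in CKO 3 and at 2.01 to 4.72 FPKM elsewhere, and Ccnb1 at 0.301 FPKM against 1.21 to 4.23 FPKM. The pseudogene Ccnb2-ps, whose reads could be exchanged with Ccnb2, was at 0.264 to 0.747 FPKM. Exosc9, on the opposite strand, overlaps 12.5% of the exon bases of Ccna2.

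The mitotic kinases and checkpoint genes did the same. Cdc20, the activator of the anaphase promoting complex, was at 6.49, 10.8 and 5.29 FPKM in the flox controls and at 7.88, 8.64 and 1.45 FPKM in CKO 1, 2 and 3 (log2 fold change -0.47, 95% interval -1.76 to 0.82, limma adjusted p = 0.63; 0.17 without CKO 3). Plk1, a kinase of mitotic entry and spindle assembly, was at 2.56, 4.01 and 2.19 FPKM and at 3.88, 4.37 and 0.653 FPKM (log2 fold change -0.13, 95% interval -1.21 to 0.95, limma adjusted p = 0.889; 0.41 without CKO 3). CKO 1 and CKO 2 lay above 2 of the 3 flox controls or more in Cdc20, and likewise in Plk1. The checkpoint kinase Bub1 was at 0.114 FPKM in CKO 3, on 9 reads, and at 0.634 to 1.56 FPKM elsewhere. Aurora kinase A (Aurka) had the mildest low value, 1.003 FPKM in CKO 3 against 1.53 to 4.07 FPKM. Aurkb, Bub1b and the survivin gene Birc5 were at 0.468, 0.749 and 0.714 FPKM in CKO 3 and at no less than 1.53, 1.76 and 1.62 FPKM elsewhere.

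The proliferation marker Mki67, which coats mitotic chromosomes, was at 2.33, 4.84 and 2.36 FPKM in the flox controls and at 4.10, 4.51 and 0.461 FPKM in CKO 1, 2 and 3. These values rested on 396, 855 and 474 reads and on 741, 882 and 84 reads. The log2 fold change was -0.22 (95% interval -1.48 to 1.03, limma adjusted p = 0.828), and without CKO 3 it was 0.40 (limma adjusted p = 0.421). This interval spans a decrease and an increase of more than 1 log2 unit, so these libraries do not place Mki67 within a narrow range of change. Top2a, the topoisomerase that untangles sister chromosomes, was at 3.09, 5.63 and 2.06 FPKM and at 4.37, 4.87 and 0.508 FPKM (log2 fold change -0.27, 95% interval -1.59 to 1.05, limma adjusted p = 0.8; 0.36 without CKO 3). The kinetochore gene Cenpf had the lowest ratio of all 40, with CKO 3 at 0.0856 times the next lowest library. The motor genes Cenpe and Kif11 and the cytokinesis gene Anln were at 0.0960, 0.389 and 0.420 FPKM in CKO 3 and at no less than 0.413, 1.75 and 0.863 FPKM elsewhere.

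**Figure D3:**
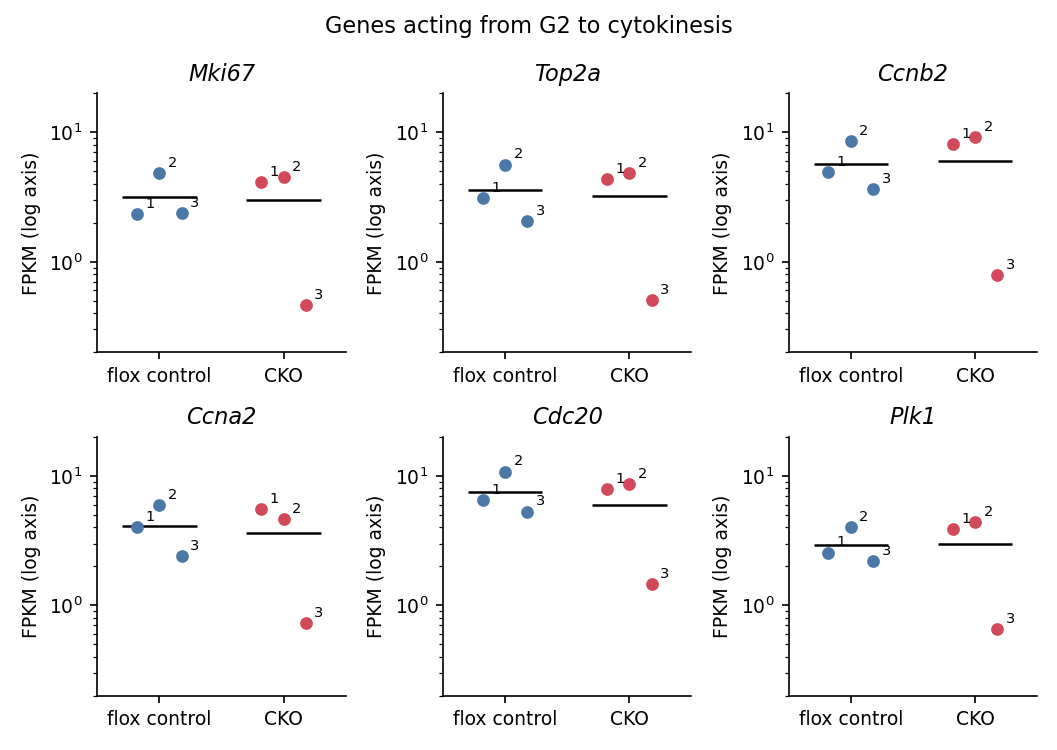
FPKM (log axis) of Mki67, Top2a, Ccnb2, Ccna2, Cdc20 and Plk1, with each numbered point 1 library and the line the group mean. In each panel CKO 1 and CKO 2 lie among or above the flox controls and CKO 3 lies below all 3, at 0.461 FPKM for Mki67.

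Direction in the late genes turned with CKO 3. With all libraries 15 of the 16 tested late genes had a negative log2 fold change, and without CKO 3, 15 of the 16 had a positive one (median 0.31), Cenpf being the exception. Without flox control 2, 12 of the 16 were positive. None of the 16 was called in any of these fits. The residual SD of the late genes (log2 units, within groups) had a median of 0.69, and 0.38 without CKO 3, against 0.15 for all tested genes in both.

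Within-group spread was wide over the whole list. The median residual SD was 0.47 over the 37 tested genes, 0.69 over the 16 late genes and 0.33 over the 21 of G1 and S phase. All tested genes had a median of 0.15, and so had the tested genes with a mean of 1 to 10 FPKM, the level of the 37 genes apart from Ccnd1, Ccnd2, Cdk4 and Pcna. The 90th percentile of all tested genes was 0.38, and 24 of the 37 lay above it, namely all 16 tested late genes and 8 of the 21 others. Ccnd2 and Cdk2 were at the opposite end, at 0.04 each. Flox control 2 was the highest library in 21 of the 40 genes and CKO 3 the lowest in 32, and CKO 1 was the highest in 10.

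**Figure D4:**
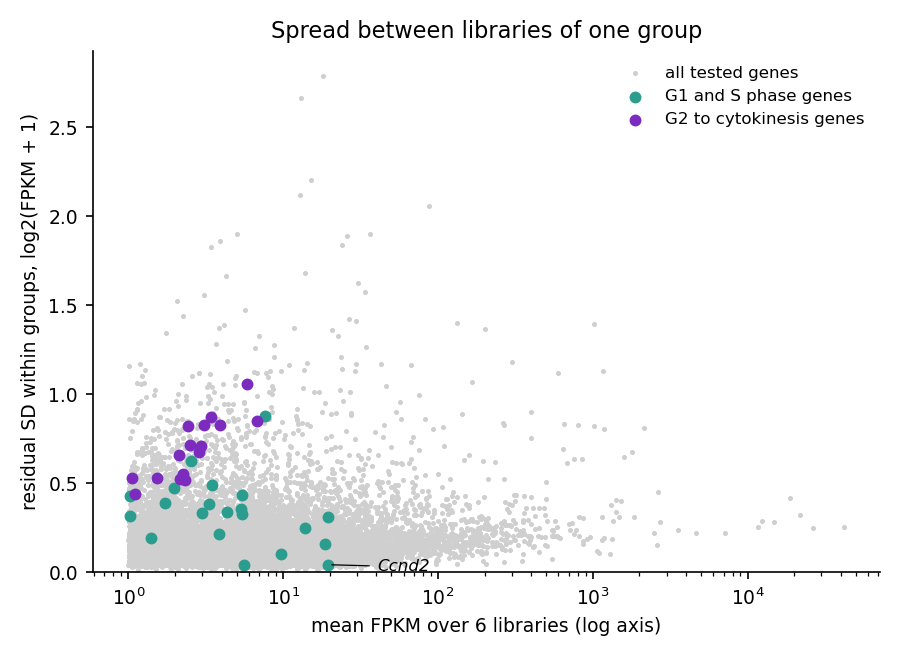
Within-group residual SD of log2(FPKM + 1) against mean FPKM (log axis) for the 37 tested genes, coloured by phase, and for all 12144 tested genes in grey. The 16 late genes lie above 0.38, the 90th percentile of all tested genes, and Ccnd2 lies at 0.04.

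**Figure D5:**
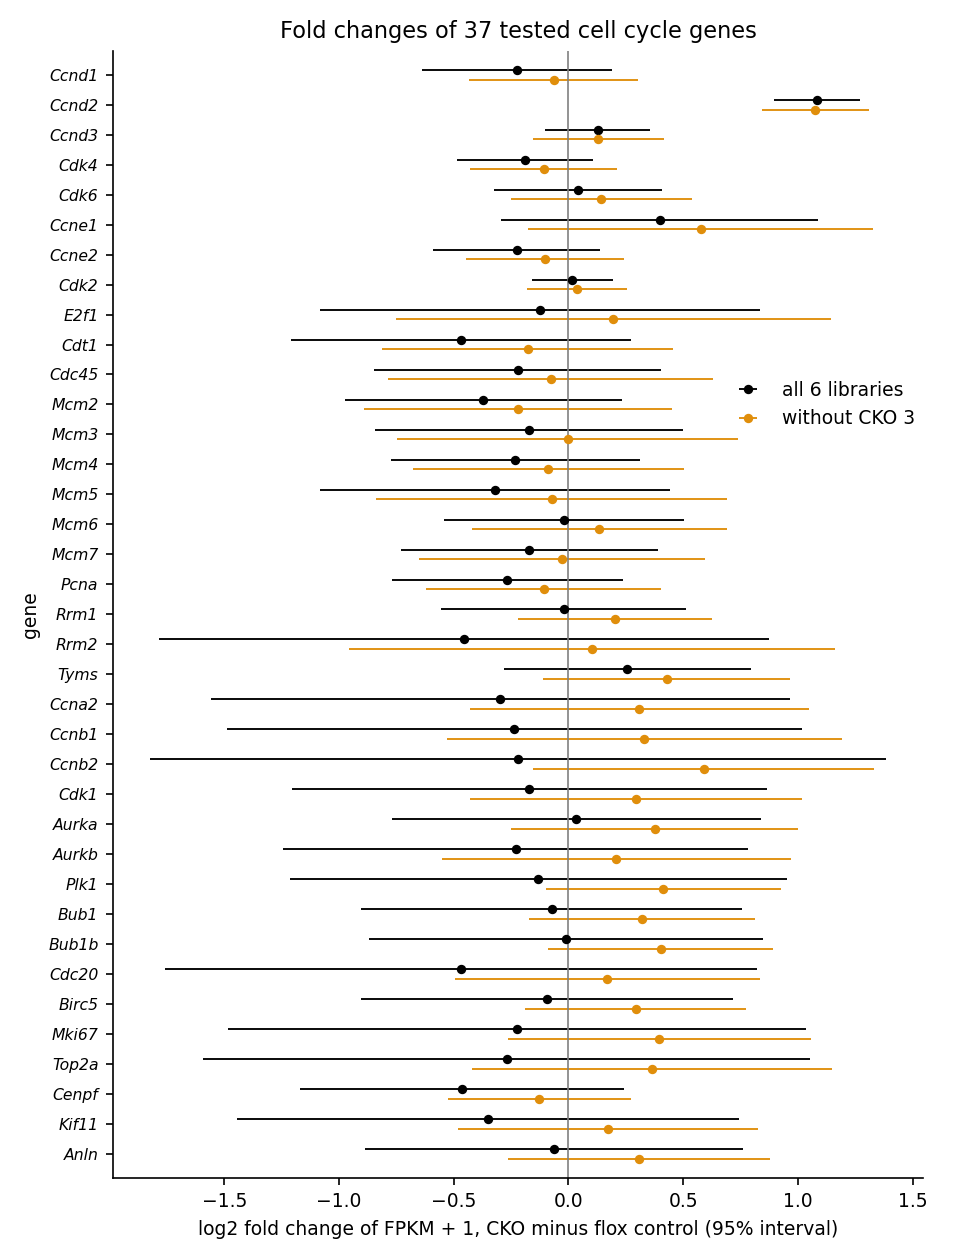
Log2 fold change of CKO against flox control for the 37 tested genes, with 95% limma intervals, from all 6 libraries (black) and without CKO 3 (orange). The interval of Ccnd2 excludes 0, and the late genes move from the left of 0 to the right without CKO 3, apart from Cenpf, which stays left, and Aurka, which is right of 0 in both.

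Other genes of the cycle were read from 6 related lists, with 139 tested genes, and 6 of the 139 were called, against the 11.2% of all tested genes given above. Of 9 tested inhibitors and pocket proteins, 1 was called higher and 0 lower (median log2 fold change 0.04). That gene, the Cdk inhibitor Cdkn1a, was at 18.7, 30.3 and 7.38 FPKM in the flox controls and at 47.6, 92.8 and 68.0 FPKM in CKO 1, 2 and 3. The groups did not overlap, with a log2 fold change of 1.97 (SE 0.49, limma adjusted p = 0.0479), but the call was lost in 10 of 17 alternatives (limma adjusted p 0.0310 to 0.128 over all 17). Of 11 tested E2F, DREAM and MuvB factors, 0 were called by limma, 2 had an unadjusted p under 0.05, and the repressor E2f6 was nearest (log2 fold change -0.34, limma adjusted p = 0.0539).

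Of 30 other replication genes 1 was called lower and 0 higher (median log2 fold change -0.11). It was Dut, which clears dUTP from the nucleotide pool, at 7.58, 10.3 and 9.10 FPKM in the flox controls and 5.57, 4.46 and 3.11 FPKM in CKO 1, 2 and 3 (log2 fold change -0.91, SE 0.19, limma adjusted p = 0.0303). Its groups did not overlap, and the call was lost in 8 of 17 alternatives (limma adjusted p 0.0150 to 0.0953). Of 23 tested genes of the anaphase promoting complex and SCF ligases, Fbxw7 was called lower and Anapc7 higher. Fbxw7, which marks cyclin E for degradation, was at 9.59, 8.95 and 10.96 FPKM and at 5.93, 4.32 and 4.55 FPKM (log2 fold change -0.87, SE 0.13, limma adjusted p = 0.012), and 1 of 17 alternatives lost the call. Anapc7 (log2 fold change 0.35, limma adjusted p = 0.042) lost it in 11. Of 23 other cyclins and kinases, Cdk5, a kinase known outside the cycle, was called lower (log2 fold change -0.37, limma adjusted p = 0.0275, lost in 8 of 17) and Ccnl2, a cyclin of RNA processing, higher (log2 fold change 0.46, limma adjusted p = 0.044, lost in 9 of 17). The median log2 fold change of these lists was -0.05 and 0.06.

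The low values of CKO 3 extended to mitotic genes outside the 40. Of 43 tested, 0 were called by limma and 1, Pttg1, had an unadjusted p under 0.05 (median log2 fold change -0.09). CKO 3 was the lowest library in 39 of the 43 and at or below 0.5 times the next lowest in 25 (58.1%). Together the 40 genes and the 6 lists held 47 of the 173 genes with that pattern in CKO 3, which is 27.2% of the 173 and 26.7% of the 176 tested genes of these lists.

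Markers of other cell types also differed between libraries. The counts of markers called here compare with 5.69% of all tested genes called higher and 5.49% called lower. The 10 macrophage markers summed to 215, 305 and 155 FPKM in the flox controls and to 902, 190 and 127 FPKM in CKO 1, 2 and 3, and the 6 neutrophil markers to 13.9, 37.05 and 8.41 FPKM and to 51.0, 21.4 and 7.06 FPKM, with Elane listed at 0 in every library. CKO 1 was thus highest and CKO 3 lowest in both. Among the cell cycle genes the same held for E2f1, Rrm1, Rrm2, Aurka, Birc5, Bub1 and Anln. The part of the macrophage and neutrophil markers in the values of those genes was not tested. The 10 lymphocyte markers summed to 2.24 FPKM in CKO 3 and to 3.71 to 8.67 FPKM elsewhere, while Cd79b, the 1 of them that was tested, was at 0.926 FPKM in CKO 3, within the 0.806 to 2.08 FPKM of the other libraries. The 10 fibroblast markers summed to 533 to 671 FPKM in flox controls and 679 to 981 FPKM in CKO hearts, with 2 called higher, and their part in the level of Ccnd2 was not tested. The 10 endothelial markers (530 to 646 FPKM, 1 called higher and 1 lower) and the 9 pericyte and smooth muscle markers (202 to 322 FPKM, 1 called lower) had CKO 3 within the range of the other libraries, at 615 and 285 FPKM. The 7 erythroid markers, a sign of blood, were at 657 to 1310 FPKM with the highest sum in CKO 3. The 7 epicardial markers summed to 11.8 FPKM in CKO 3 and to 12.9 to 20.2 FPKM elsewhere. CKO 3 was the lowest library in 1 of the 4 tested, Aldh1a2, and their median ratio to the flox control mean was 1.10 in CKO 3, within the 0.867 to 1.33 of the other libraries. The 5 Schwann cell markers summed to 4.998 to 7.62 FPKM. Of the 10 cardiomyocyte markers 1 was called lower, and 8 had a negative log2 fold change (median -0.29). Their median ratio to the flox control mean was 0.995, 1.03 and 0.931 in flox controls 1, 2 and 3. It was 0.743 and 0.764 in CKO 1 and CKO 2 but 1.01 in CKO 3. The part of this difference in the late genes of CKO 3 was not tested.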

How the data were processed

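Poly-A RNA of 6 hearts was sequenced as 150-base read pairs; strand marking is not described. The authors deposited FPKM per gene; per the submitters' processing notes, CASAVA, HISAT2 2.0.5, featureCounts 1.5.0-p3, DESeq2 1.20.0 and GRCm38.p6 were used. FPKM times gene length gave whole reads in 100% of values (tolerance 0.001). The library size that the FPKM imply was not the number of reads in genes. It was 16906960 against 17748541 reads in flox control 1 and 19457628 against 17872221 in CKO 2.

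On log2(FPKM + 1), limma 3.58.1 (R 4.3.3) compared genotypes in genes of mean 1 FPKM or more, with no other factor and a variance trend. Calls are 2-sided, at an adjusted p (Benjamini-Hochberg) under 0.05; the log scale understates changes of low genes. The recovered reads were tested with voom, as an alternative, because FPKM are not counts. Named are called genes, the 2 most abundant of each of 7 roles, Mki67, Top2a and the D-type cyclins, and up to 3 genes per list; other genes were chosen after their values were seen. The members and lists were chosen with earlier results of these data known. The procedure was tested on simulated data with the spread typical of each expression level. It was not tested at the wider spread of the cell cycle genes. The 16 lists are 6 of the cycle and 10 of cell types. Reads shared with a gene of the opposite strand cannot be assigned. Whether equal replicate numbers pair the samples is not shown by the data, and the main fit did not pair them.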

Additional observations from a re-analysis of the deposited data

How the results depend on the processing

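Over the 17 alternatives, 1 of the cell cycle genes was called higher (Ccnd2 in each) and 0 lower. All tested genes called numbered 1358, but 798 with no filter, 715 with the replicate block and 315 to 1490 with 1 library left out. The calls in the 6 related lists numbered 6, but 2 with no filter, 2 with libraries rescaled to the same FPKM sum, 2 with the replicate block and 0 to 7 with 1 library left out: 0 without flox control 1, 2 without flox control 2, 1 without flox control 3, 2 without CKO 2 and 1 without CKO 3. The log2 fold change of Ythdc1 was -0.50 with libraries rescaled (limma adjusted p = 0.0888) and -0.54 with the replicate block (limma adjusted p = 0.0542), and -0.60 to -0.50 with 1 library left out, past the threshold except without flox control 1, flox control 3 or CKO 3 (limma adjusted p 0.0707, 0.0637 and 0.0535); at a mean of at least 5 FPKM it was not tested. Same-number correlations of deviations were 0.139, 0.0597 and -0.00548, within the -0.231 to 0.141 of unequal numbers. These values neither show nor exclude that the numbers pair the samples, and the block changed no call among the 37 genes.

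Direction changed, with none called, with 1 library left out, over log2 ranges of -0.65 to 0.31 (Ccna2), -0.66 to 0.59 (Ccnb2), -0.82 to 0.17 (Cdc20), -0.0054 to 0.039 (Cdk2), -0.55 to 0.20 (E2f1), -0.38 to 0.13 (Mcm3), -0.21 to 0.14 (Mcm6), -0.56 to 0.40 (Mki67), -0.44 to 0.41 (Plk1), -1.09 to 0.10 (Rrm2) and -0.62 to 0.36 (Top2a). Mcm6 also turned to 0.029 with libraries rescaled. The causes were not tested. That rescaling changed the split of calls over all genes from 691 higher and 667 lower to 565 and 424. With 3 libraries a group, values on under 100 reads, such as those of late genes in CKO 3, carry counting error besides.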
